A study of Mus musculus with 6 samples.

Results

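Scavenger receptors are the 8 genes Msr1, Marco, Colec12, Cd36, Scarb1, Cd68, Stab1 and Cd163, chosen by gene name from the classes of this receptor group, and all 8 were measured among 19938 named genes. Each had exactly 1 probe set, so no choice between probe sets was needed. The samples were 6 Affymetrix Mouse Gene 1.0 arrays of unstimulated bone marrow cells from C57B/6 mice, grown for 6 days with 20 ng/ml of GM-CSF (granulocyte-macrophage colony-stimulating factor, a cytokine that expands myeloid cells). The labels assign 3 arrays to a dendritic and 3 to a macrophage population of this culture, and both populations share the strain, the cytokine and the culture time. The labels used here name neither the markers that separated the populations nor the mice or cultures behind each replicate. P-values therefore cover the spread between these arrays alone, part or all of which may be technical, and a receptor used for the separation would differ for that reason.

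Scavenger receptors are surface and endosomal proteins that bind polyanionic or altered ligands such as oxidised lipoproteins, dying cells and bacterial surfaces, and deliver them to endosomes and lysosomes. They are grouped by structure and not by descent: class A members are trimers with collagen-like stalks, class B members cross the membrane at both ends and handle lipids, and the stabilin and CD163 types are large multi-domain clearance receptors. Macrophages are the cells best known for them, while dendritic cells lose much of their endocytic capacity as they mature.

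Values are the deposited log2 RMA values, differences are dendritic minus macrophage means on this scale, ± SE, and n = 3 arrays per population throughout. A gene was called higher or lower in the dendritic population at a limma adjusted p under 0.05 over all genes. Marker lists, like the other lists, were chosen with earlier results of these data known. Their counts describe the populations and are no check of the labels. Over all genes 9.98% were called higher and 11.6% lower. Of the dendritic markers 7 of 7 (Fscn1, Ccr7, Flt3, Cd83, Dpp4, Relb and Zbtb46) were called higher, and 6 of 6 measured macrophage markers (Csf1r, C1qa, Cd14, Fcgr1, Mertk and Adgre1) were called lower. The summed linear value of the macrophage markers lay between 189.8 and 199.6 on the dendritic arrays and between 4862 and 6682 on the macrophage arrays. Neutrophil granule markers summed to 2276 to 5581 on the dendritic and 2499 to 6214 on the macrophage arrays, and 1 of 10 was called (Mpo, lower). Of the mast cell, T and NK cell, erythroid, endothelial and stromal markers 0 were called by limma, with 1 (Kdr, endothelial) at an unadjusted p under 0.05. Of the B cell markers 1 of 4 was called (Cd79a, higher), and leaving out some single arrays ended the calls of Mpo and Cd79a. Osteoclast markers were lower in 3 of 5 cases (Acp5, Ctsk and Dcstamp). The table has no detection calls and no true 0. In these bulk samples fewer cells that express a gene cannot be told apart from less of its RNA per cell. For orientation, array medians over the whole probe set table lay between 4.79 and 4.96.

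The scavenger receptors were lower in the dendritic population or did not differ detectably. Of the 8 genes 6 were called lower (Msr1, Cd68, Cd36, Stab1, Scarb1 and Cd163) and 0 higher, where 11.6% of all genes were called lower and 9.98% higher. The other members, Colec12 and Marco, were not called. At an unadjusted limma p under 0.05 the counts were 7 lower (with Colec12) and 0 higher. The median difference of the 8 was -2.02, against 0.03 over all genes tested. All 6 called members were at least 2-fold lower, as were 5.82% of all genes among those called. A decrease of at least 8-fold was seen for 3 of them (Msr1, Cd68 and Cd36), a size reached by 0.863% of all genes among those called. In 7 of 8 every dendritic array lay below every macrophage array, which held for 16.7% of all genes. Since the genes were picked with results of these data known, these counts describe the group and are not a test of it.

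**Figure D1:**
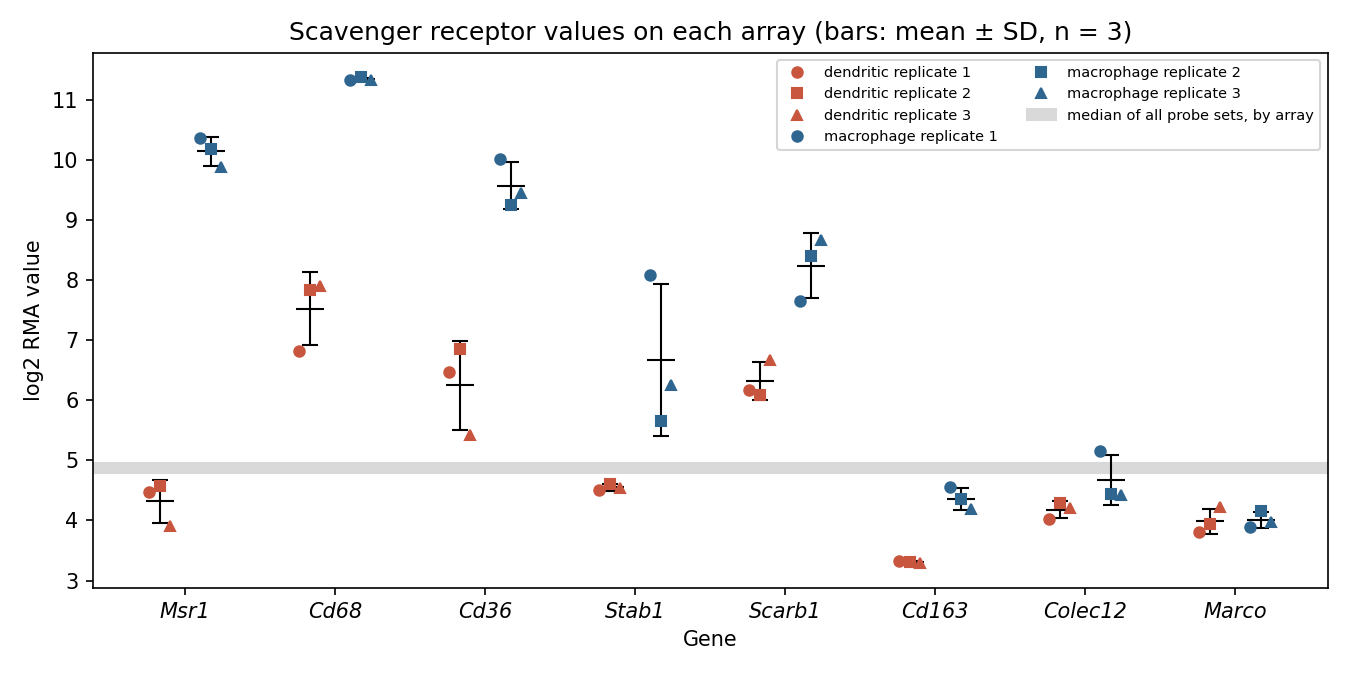
The log2 RMA value (vertical axis) of each scavenger receptor gene (horizontal axis) is plotted for each of the 3 dendritic (red) and 3 macrophage (blue) arrays, with marker shapes for the replicate number, black bars for the mean ± SD and a grey band for the range of array medians. Msr1, Cd68 and Cd36 are separated by at least 2.40 log2 units between the nearest arrays, while the arrays of Marco overlap.

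Promoters held in the RefSeq table (GRCm38.p6) matched 5 of the 8 genes, and 3 are shown because they belong to members with different outcomes: Cd68 (called, with macrophage arrays close together), Stab1 (called, with macrophage arrays far apart) and Marco (not called). Each is given 5′ to 3′ on the gene's strand, ends just before the annotated gene and is in lower case, with motif matches in capitals. The Cd68 stretch is chr11:69666171-69666320 (minus strand), that of Stab1 is chr14:31168652-31168791 (minus strand) and that of Marco is chr1:120505025-120505174 (minus strand).
Cd68: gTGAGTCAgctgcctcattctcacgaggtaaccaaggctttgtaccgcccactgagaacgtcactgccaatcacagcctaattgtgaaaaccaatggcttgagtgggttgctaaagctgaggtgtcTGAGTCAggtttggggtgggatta
Stab1: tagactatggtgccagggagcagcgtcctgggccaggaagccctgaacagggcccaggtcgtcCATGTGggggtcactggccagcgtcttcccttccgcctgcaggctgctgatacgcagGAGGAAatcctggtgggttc
Marco: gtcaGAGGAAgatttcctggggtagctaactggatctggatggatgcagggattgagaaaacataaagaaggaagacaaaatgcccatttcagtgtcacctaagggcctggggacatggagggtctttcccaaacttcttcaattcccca

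The motifs were searched on both strands in the 250 bases before each start: GAGGAA (core of PU.1 sites), TGANTCA (AP-1), CACGTG and CATGTG (forms bound by MiT/TFE factors), TGCTGAC (part of a Maf site), AGGTCA (nuclear receptor half-site) and TATAAA. No match overlapped another. The Cd68 promoter held TGAGTCA in 2 places, 149 to 143 and 24 to 18 bases before the start. At least 1 match of TGANTCA was found in 6.75% of all 32851 promoters and at least 2 in 0.338%. GAGGAA was present in 3 of the 5 promoters (Cd68, Stab1 and Marco) and in 23.3% of all, at 225 to 220 bases before the start of Cd68, which is outside the printed stretch. This core was thus found in 2 called members and in Marco, which was not called. Stab1 also held CATGTG (12.3% of all promoters). Cd36 held AGGTCA on the opposite strand (14.0% of all), from a start that lies inside the annotated gene. CACGTG (6.02% of all), TGCTGAC (3.81%) and TATAAA (12.4%) had no match in the 5 promoters. A match is a description of letters and not of binding.

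Among the class A receptors the outcome was split. Msr1 (probe set 10578264), the type A receptor for acetylated and oxidised LDL and for bacterial surface lipids, had values of 4.47, 4.57 and 3.91 on the dendritic arrays and 10.37, 10.18 and 9.88 on the macrophage arrays. All dendritic values lay below the array medians and the nearest macrophage array was 5.31 above the highest of them. The difference was -5.83 ± 0.20 (95% interval -6.28 to -5.37), 56.7-fold on this scale (limma adjusted p = 3.65e-07), and only 6 genes of 19938 had a lower value. RMA compresses dim values, so the fold is not a ratio of transcripts.

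Marco (probe set 10357261), a class A receptor of bacteria and particles that is typical of alveolar and marginal zone macrophages, stayed dim in both populations. Its values were 3.81, 3.94 and 4.22 on the dendritic and 3.89, 4.16 and 3.98 on the macrophage arrays. The arrays overlapped, and all 6 lay below the array medians. The difference was -0.02 ± 0.15 (limma adjusted p = 0.965), with a 95% interval from -0.36 to 0.32. The sign turned with 75th percentile centring (0.08) and on leaving out dendritic replicate 1, dendritic replicate 2 or macrophage replicate 2. It also turned without replicate 1 of both populations, and stayed negative on leaving out any other single array.

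Colec12 (probe set 10453747), a class A member with a C-type lectin domain, known from endothelium and stroma, had values of 4.02, 4.30 and 4.21 on the dendritic arrays. The macrophage arrays held 5.16, 4.44 and 4.42. The populations did not overlap, by a margin of 0.12, with macrophage replicate 1 well above the other two. The difference of -0.50 ± 0.21 was not called (limma unadjusted p = 0.0395, adjusted p = 0.138), and it was -0.25 without macrophage replicate 1. The endothelial markers Cdh5, Pecam1, Tek, Lyve1 and Stab2 differed by -0.03 to 0.10 and the 6 stromal markers by -0.07 to 0.08, with none called. The summed endothelial value was 99.7 to 127 on dendritic and 108 to 143 on macrophage arrays, and the stromal one 140.4 to 201 and 149 to 190.4. The endothelial marker Kdr differed by -0.86 ± 0.30 (limma adjusted p = 0.0735). It was called when the replicate number was a block (-0.86, limma adjusted p = 0.0168), without macrophage replicate 1 (-1.20, 0.00497), without replicate 1 of both populations, after a repeat of quantile normalization and with array weights.

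Both class B receptors were lower in the dendritic population. Cd36 (probe set 10528207), a receptor for oxidised LDL, long-chain fatty acids and thrombospondin, had values of 6.47, 6.86 and 5.42 on the dendritic and 10.02, 9.26 and 9.45 on the macrophage arrays. The populations stood 2.40 apart at their nearest arrays, and the dendritic arrays spread over 1.44, with replicate 3 the lowest. The difference was -3.33 ± 0.35 (95% interval -4.11 to -2.54), or 10.04-fold (limma adjusted p = 0.000136). Its pooled SD of 0.60 was larger than that of 98.6% of genes. Cd36 is also a platelet gene. The megakaryocyte markers Itga2b, Gp5 and Gp9 differed by -0.02 to 0.11 and were not called, while Pf4, which macrophages can also express, was lower (-5.91 ± 0.29).

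Scarb1 (probe set 10533929), the HDL receptor that takes up cholesteryl esters, had values of 6.18, 6.09 and 6.68 on the dendritic and 7.65, 8.41 and 8.68 on the macrophage arrays. The nearest arrays were 0.97 apart. The difference was -1.93 ± 0.27 (95% interval -2.53 to -1.33), or 3.81-fold (limma adjusted p = 0.000755). Macrophage replicate 1 held the lowest macrophage value of Scarb1 but the highest of Cd36, so the class B receptors deviated in opposite directions on that array. The third class B gene, Scarb2, which encodes a lysosomal membrane protein that delivers glucocerebrosidase, differed by -0.56 ± 0.24 and was not called (limma adjusted p = 0.152). A call was gained by blocking on the replicate number and by leaving out dendritic replicate 1 alone or with macrophage replicate 1 (limma adjusted p 0.00938 to 0.407 over the alternatives).

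Cd68 (probe set 10387536), the class D member, is a heavily glycosylated protein of late endosomes and lysosomes and a common histological marker of macrophages. It had values of 6.83, 7.84 and 7.91 on the dendritic and 11.33, 11.38 and 11.34 on the macrophage arrays. The macrophage arrays lay within 0.05 of each other, with an SD that was smaller for only 2.33% of genes, while dendritic replicate 1 lay below the other dendritic arrays. The difference was -3.82 ± 0.26 (95% interval -4.42 to -3.23), or 14.2-fold (limma adjusted p = 1.12e-05). All dendritic values stayed above the array medians, unlike those of Msr1. Of 4 genes of the related LAMP family 2 were called lower, Lamp2 (-1.61 ± 0.15, limma adjusted p = 8.35e-05) and Lamp1 (-0.66 ± 0.13), and 0 higher, also at an unadjusted limma p under 0.05. Lamp3, known as DC-LAMP from mature human dendritic cells, had means of 2.85 (dendritic) and 2.77 (macrophage) (limma adjusted p = 0.769).

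Stab1 (probe set 10418506), or stabilin-1, clears altered matrix proteins such as SPARC and sorts ligands to lysosomes. Its values were 4.51, 4.61 and 4.53 on the dendritic and 8.08, 5.65 and 6.26 on the macrophage arrays. The dendritic arrays lay within 0.10 of each other, whereas the macrophage arrays spread over 2.43, and the SD of 1.27 there was larger than that of 99.9% of genes. The difference was -2.11 ± 0.50 (95% interval -3.26 to -0.97), or 4.33-fold on this scale (limma adjusted p = 0.0151). The dendritic values lay below the array medians and may be at background, where RMA compresses differences, so this fold too is no ratio of transcripts. Without macrophage replicate 1 the difference was smaller, -1.40, but had a lower limma adjusted p of 0.000845. The call was lost without dendritic replicate 2 (limma adjusted p = 0.0510) and when all probe sets were tested (0.0545), and adjusted p ranged from 0.000845 to 0.0545 over the alternatives. Stab2, its paralogue of sinusoidal endothelium, differed by 0.10 ± 0.13 (limma adjusted p = 0.728).

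Cd163 (probe set 10541644), the receptor for haptoglobin-haemoglobin complexes, had the smallest called difference of the 8. Its values were 3.33, 3.31 and 3.29 on the dendritic and 4.55, 4.35 and 4.18 on the macrophage arrays. All 6 values lay below the array medians and the nearest arrays were 0.85 apart. The difference was -1.05 ± 0.13 (95% interval -1.36 to -0.75), or 2.08-fold on this scale (limma adjusted p = 0.000452), with the same limit as for Stab1 in both populations. Among the dendritic arrays its SD was 0.02, and 1.29% of genes had a smaller one.

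**Figure D2:**
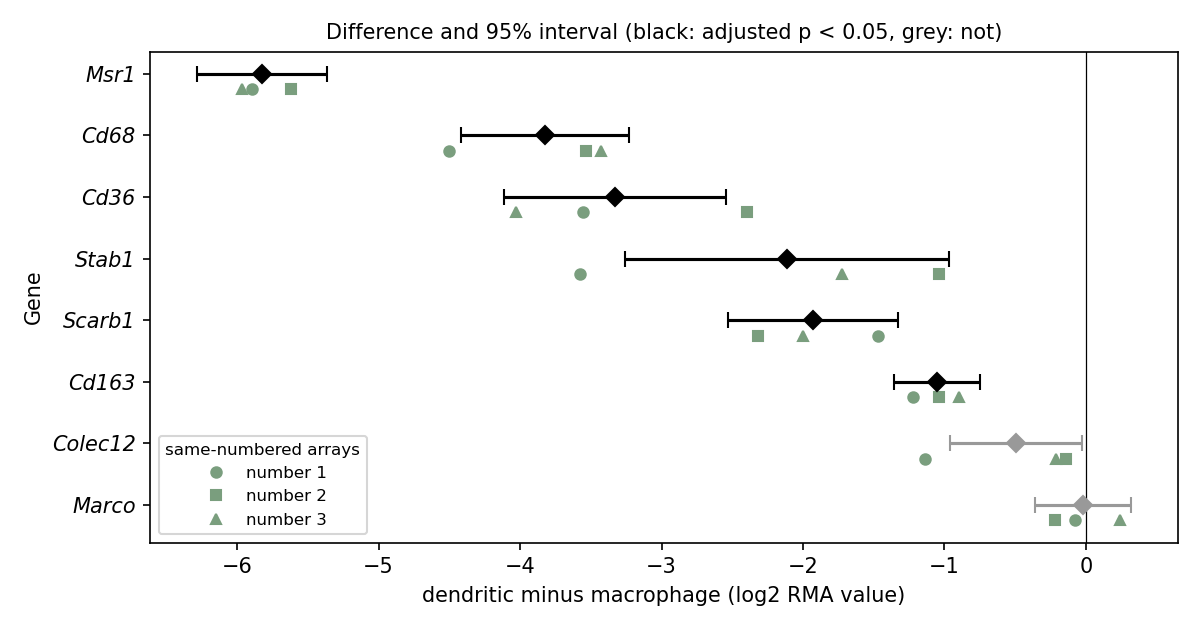
The dendritic minus macrophage difference (horizontal axis, log2 RMA value) is drawn for each gene (vertical axis) as a diamond with its 95% interval, black where called and grey where not, and green marks give the difference between same-numbered arrays. Differences run from -5.83 for Msr1 to -0.02 for Marco, and the marks of Stab1 spread from -3.57 to -1.04.

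The replicate arrays of a population did not deviate alike for all members. Same-numbered differences were all negative for 7 genes and of mixed sign for Marco (-0.08, -0.22 and 0.24). For Msr1 they lay between -5.97 and -5.62, for Cd68 between -4.51 and -3.43, for Cd36 between -4.03 and -2.40, and for Scarb1 between -2.32 and -1.47. Macrophage replicate 1 was above its population mean for Stab1 (by 1.42), Colec12 (0.49), Cd36 (0.45), Msr1 (0.23) and Cd163 (0.19), and was below it for Scarb1 (-0.60), Marco (-0.12) and Cd68 (-0.02). Dendritic replicate 3 was the lowest dendritic array for Cd36 (deviation -0.83), Msr1 (-0.41) and Cd163 (-0.02) and the highest for Cd68 (0.38), Scarb1 (0.36) and Marco (0.23). The summed macrophage markers differed little between the dendritic arrays, as given above. Neutrophil granule markers were highest on macrophage replicate 1 for 10 of 10 genes, with summed values of 6214 there, 2499 on replicate 2 and 3173 on replicate 3. On the dendritic arrays these sums were 5581, 3496 and 2276 for replicates 1 to 3. The Stab1 values there lay below the array medians and may be at background, so their closeness says nothing on this signal. The part of this signal in the deviations of the members, Stab1 included, was not tested.

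**Figure D3:**
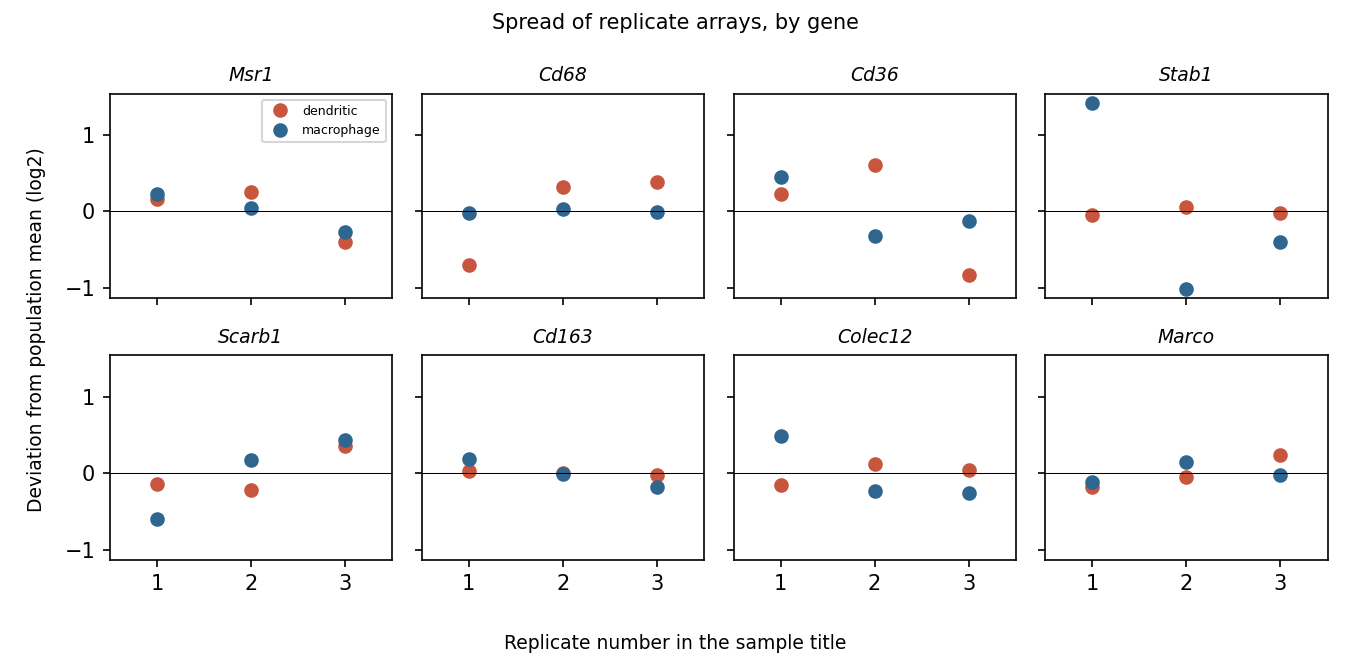
Each panel is 1 scavenger receptor gene, with the replicate number on the horizontal axis and the deviation of each array from its population mean (log2) on the vertical axis, dendritic in red and macrophage in blue. The widest deviations are those of Stab1 on macrophage replicates 1 (1.42) and 2 (-1.01), while Cd163 stays within 0.19 of its means.

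Likeness of pattern was measured by the Euclidean distance between log2 values centred on each gene's mean over the 6 arrays. It is dominated by the difference between the populations and is given as a description. The nearest genes to Msr1 were Clec4a1 (distance 0.46), C1qb (0.48) and Csf1r (0.64). Those to Cd68 were Cd300lf (0.38), Klrb1b (0.54) and Lilr4b (0.65). Cd36 was nearest to Cyth4 (0.57), Pon3 (0.68) and Pid1 (0.71). Scarb1 was nearest to Msmo1 (0.39), Pik3cd (0.42) and Ica1 (0.44). For Stab1, with its high macrophage replicate 1, they were Cd28 (0.35), Tanc2 (0.70) and Fcgr4 (0.75). For Cd163 they were Abca6 (0.10), Klc4 (0.16) and H6pd (0.17), and for Colec12 Cldn22 (0.12), P2ry12 (0.19) and Atp7a (0.21). Marco, which barely varied, was nearest to Rassf9 (0.06), Nat8f2 (0.07) and Fam43b (0.09).

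Other receptors of the scavenger group were mostly not called. Of 24 measured, 6 were called lower, 1 higher and 17 not, with a median difference of 0.02. For this and the following lists, the shares over all genes were 11.6% lower and 9.98% higher. Some uncalled genes had means below the array medians in both populations, such as Cd5l (3.62 dendritic, 3.60 macrophage), Dmbt1 (3.90, 3.80) and Megf10 (3.94, 3.78). These may be at background, which limits what the median shows. Others were brighter, such as Scarb2 (8.49, 9.05) and Cd44 (6.42, 7.24). The mannose receptor Mrc1 had the largest decrease, from 9.14 to 3.83 (-5.31 ± 0.22, limma adjusted p = 6.87e-07). The asialoglycoprotein receptor chain Asgr2 (-3.88 ± 0.27), the multi-ligand receptor Lrp1 (-2.88 ± 0.21), the beta-glucan receptor Clec7a (-2.61 ± 0.20), the secreted Lgals3bp (-2.48 ± 0.18) and the oxidised LDL receptor Olr1 (-1.03 ± 0.23) were also lower. Asgr1, the partner chain of Asgr2, stood at 3.88 in both populations. The member called higher was Cxcl16, a membrane-bound chemokine that also binds oxidised LDL (0.45 ± 0.12, limma adjusted p = 0.0269). That call was lost on leaving out any 1 of the other arrays than macrophage replicate 1 (0.00433 to 0.106 over the alternatives).

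Genes of lipoprotein and cholesterol handling, the route that follows uptake by Msr1, Cd36 and Scarb1, were called lower in 10 of 17 cases and higher in 0 (also 0 higher at an unadjusted limma p under 0.05), with a median of -1.93. Apolipoprotein E (Apoe) differed by -4.04 ± 0.65, with macrophage values of 12.45, 9.31 and 10.05. Without macrophage replicate 1 it differed by -3.12, less than the next 3 genes did without that array. Caveolin Cav1 (-3.70 ± 0.23), the cholesteryl ester hydrolase Nceh1 (-3.67 ± 0.14) and the lysosomal acid lipase Lipa (-3.39 ± 0.25) were also lower. The Scarb1 adaptor Pdzk1 was lower by a small amount (-0.65 ± 0.16, limma adjusted p = 0.0187), a call lost without dendritic replicate 2 or 3 and without macrophage replicate 1 or 2. The sterol carrier Npc2 (11.37 and 11.35) and the fatty acid carrier Fabp5 (10.95 and 10.91) were bright in both populations and not called. Blocking on the replicate number, or leaving out macrophage replicate 1, gave 1 member higher, Fabp4 (0.67 ± 0.46, limma adjusted p = 0.423 in all arrays).

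Co-receptors and signalling partners of Cd36 moved in both directions. Of 18 measured, 10 were called lower and 2 higher, with a median of -1.16. The lipopolysaccharide co-receptor Cd14 (-4.77 ± 0.20), the Toll-like receptors Tlr4 (-3.96 ± 0.25), Tlr2 (-3.15 ± 0.18) and Tlr6 (-1.65 ± 0.19) and the Cd36 ligand thrombospondin Thbs1 (-3.45 ± 0.36) were lower. The Src-family kinase Fyn, which associates with Cd36, was higher, with dendritic values of 8.22, 8.01 and 8.60 and macrophage values of 4.62, 5.84 and 5.29. Its populations did not overlap, and the difference was 3.02 ± 0.29 (limma adjusted p = 8.00e-05). The exchange factor Vav3 was also higher (1.09 ± 0.26, limma adjusted p = 0.0156), a call lost without macrophage replicate 2 or 3 and with all probe sets tested (1 member higher in each).

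Of 11 measured genes of haemoglobin and heme handling 7 were called lower and 0 higher (1 at an unadjusted limma p under 0.05), with a median of -1.45. The shares over all genes were 11.6% lower and 9.98% higher. The list was not limited to genes downstream of Cd163, since it also holds haptoglobin and the protease Adam17. Heme oxygenase Hmox1 fell from 10.48 to 6.53 (-3.95 ± 0.32, limma adjusted p = 3.25e-05). Haptoglobin (Hp, -3.51 ± 0.56) and the biliverdin reductase Blvrb (-2.11 ± 0.15) were lower too, as was Adam17 (-1.73 ± 0.20), a protease known to shed human CD163. The iron exporter Slc40a1 differed by -0.58 ± 0.32 and was not called (limma adjusted p = 0.294), and without macrophage replicate 1 it differed by -0.13. Blocking on the replicate number gave 1 member higher, the heme carrier Hpx.

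Of 22 transcription factors known to act on these receptor genes 14 were called lower and 1 higher, with a median of -0.68. The MiT/TFE factors Tfec (-4.77 ± 0.19) and Mitf (-2.35 ± 0.20) had the largest decreases, with Cebpb (-2.18 ± 0.20) next. Over the alternatives Mitf differed by -2.55 to -1.59 and Cebpb by -2.32 to -1.95, so the order of Mitf and Cebpb depended on the fit. Pparg, a regulator of Cd36, was lower (-1.90 ± 0.29, limma adjusted p = 0.00132). Macrophage replicate 1 was the lowest macrophage array for Pparg (5.33 against 6.54 and 6.33), as for Scarb1. It was the highest for Cd36 (10.02 against 9.26 and 9.45). PU.1 (Spi1) was lower by 0.78 on the log2 scale (limma adjusted p = 0.00363). Jun, Jund and Fos, subunits of AP-1, were not called. Jun and Jund differed by 0.25 ± 0.17 and -0.24 ± 0.12. Fos differed by -1.84 to -0.73 over the alternatives, and was called lower without dendritic replicate 3 and without macrophage replicate 3. Jun was called higher without replicate 1 of both populations and with array weights. The higher member was Irf4 (0.86 ± 0.24, limma adjusted p = 0.0315, and 0.55 without macrophage replicate 1), whose call was lost without dendritic replicate 2 or 3, after quantile normalization was applied again and with all probe sets tested (0.00699 to 0.106 over the alternatives).

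The uptake machinery did not move as a block. Of 22 clathrin and endosome genes 6 were called lower, 4 higher and 12 not, with a median of -0.16. Calls in both directions were thus more frequent than over all genes (11.6% lower and 9.98% higher). The endocytic adaptor Dab2 (-3.06 ± 0.34, but -1.45 as the mean of its probe sets, which thus disagree), the AP-2 subunit Ap2a2 (-1.57 ± 0.16) and the late endosomal GTPase Rab7 (-0.85 ± 0.12) were lower. Gga2 (1.90 ± 0.25), Gga3 (0.97 ± 0.12), Eps15 (0.84 ± 0.12) and Rab11a (0.73 ± 0.13) were higher. GGA proteins are the sorting adaptors that bind the tail of stabilin-1, and Gga1 differed by -0.22 ± 0.12 (limma adjusted p = 0.280). Of 15 ligands 4 were lower (Apoe, Hp, Thbs1 and Chid1, the stabilin-1 partner, -0.97 ± 0.17) and 0 higher (2 at an unadjusted limma p under 0.05), and the first 3 of these also stand in the lists above. Blocking on the replicate number gave 2 ligands higher, Anxa5 and the apoptotic cell bridging protein Mfge8 (0.44 ± 0.15 and 1.19 ± 0.47 in all arrays, limma adjusted p = 0.0798 and 0.120).

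**Figure D4:**
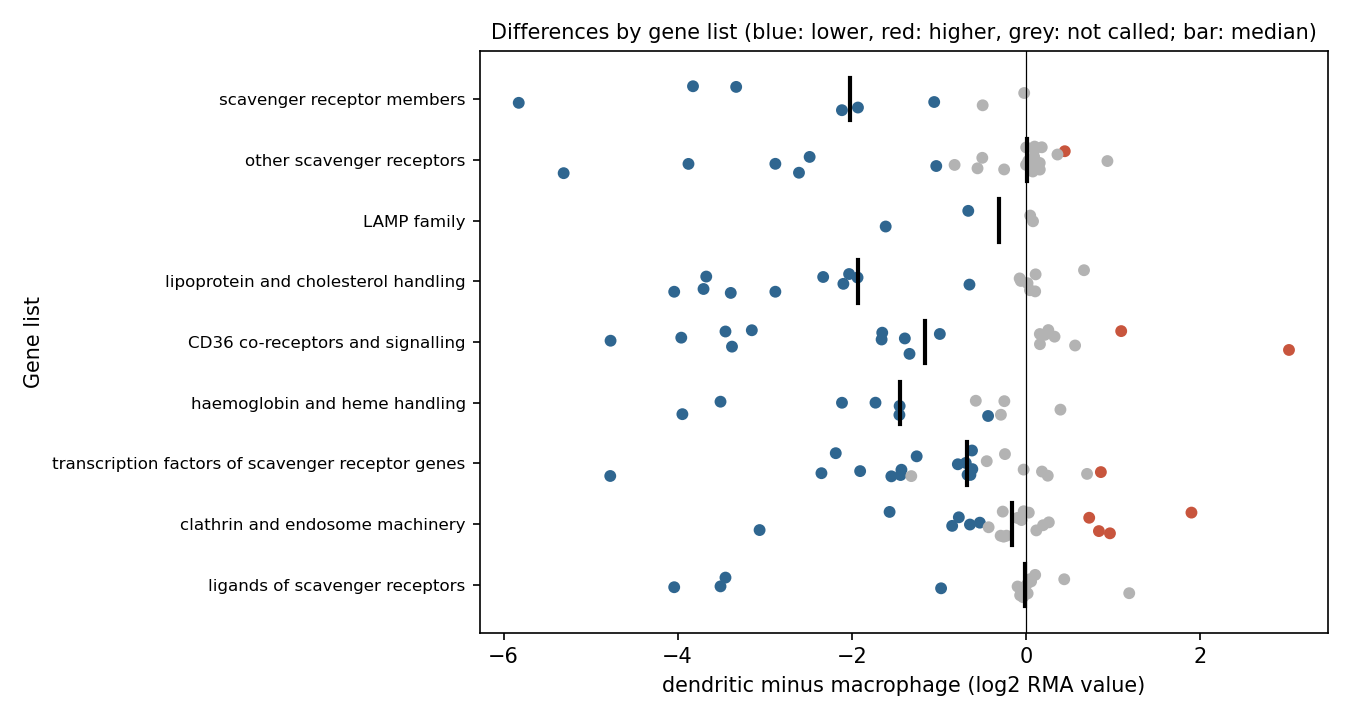
Each point is 1 gene of a list (vertical axis), placed by its dendritic minus macrophage difference (horizontal axis, log2 RMA value), blue where called lower, red where called higher and grey where not, and black bars are list medians. The scavenger receptors have a median of -2.02 and the lipoprotein genes of -1.93, while the other scavenger receptors centre on 0.02 and Fyn is the point farthest to the right at 3.02. Some of the other scavenger receptors lay below the array medians in both populations and may be at background.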

How the data were processed

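The authors deposited log2 values made with RMA (R 3.0.2, as the submitters' processing notes list), 1 for each of 35556 probe sets and 6 arrays. RMA corrects background, equalises arrays by quantiles and summarises probes. The sources used here state neither its array set nor a genome build or filter. From 6 ug of total RNA, biotin-labelled cRNA was hybridised, per the labels.

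Probe sets with exactly 1 symbol in the platform table (21789) were kept, and the one with the highest mean per gene gave 19938 genes. Some listed genes had no such probe set and were not analysed here. limma 3.58.1 (lmFit, eBayes, 2-sided) in R 4.3.3 was fitted to all 6 arrays with population as the only term and Benjamini-Hochberg adjustment over all genes. It was tested on simulated data. Exact permutation tests used scipy 1.17.1, and with 3 arrays against 3 cannot go below p = 0.1. Precision is limited by the number of arrays.

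The members and lists were chosen with earlier results of these data known. Named are the 8 members, up to 3 called genes per list and direction with the largest difference, all called genes where few, and the 3 nearest genes in pattern. Some others were named after their values were seen.

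Same-numbered arrays deviated together (r = 0.385, 0.147 and 0.272 for numbers 1, 2 and 3). The main fit is unpaired, and a block on the numbers in the titles was fitted only as an alternative. The labels do not say what these numbers mark, and dendritic replicate 2 correlated as much with macrophage replicate 3 (0.155). Alternatives were that block, each array left out, other normalizations, level filters, other probe set choices, array weights and another variance model. Leaving out replicate 1 of both populations was chosen after seeing the data.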

Additional observations from a re-analysis of the deposited data

How the results depend on the processing

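The count of scavenger receptors called lower was 6 when the replicate number was a block, and the block changed no call among the 8. It was 5 to 6 when arrays were left out, with 0 called higher in every fit. Msr1, Cd68, Cd36 and Scarb1 were called in all 16 alternative fits, Cd163 in all 14 that could be fitted, Stab1 in 14 of 16, and Colec12 and Marco in none of 15 and 14. These fits are not independent checks. Each member has 1 probe set, so the level filters and other probe set choices left its values unchanged. They altered only the variance estimate and the adjustment. The filter at the median left out Colec12, Cd163 and Marco, and the 30th percentile filter left out Cd163 and Marco, so these have no value there. With arrays left out, differences ranged from -5.96 to -5.62 (Msr1), -4.01 to -3.47 (Cd68), -3.63 to -2.91 (Cd36), -2.62 to -1.38 (Stab1), -2.23 to -1.71 (Scarb1), -1.14 to -0.96 (Cd163), -0.62 to -0.17 (Colec12) and -0.136 to 0.0710 (Marco). Marco turned sign with 75th percentile centring (0.0793, against -0.0194 in the main fit). This centring subtracts a constant from each array, so it shifts the difference of every gene alike. Msr1 moved from -5.83 to -5.73 and Cd163 from -1.05 to -0.954. Stab1 was no longer called with all probe sets tested (-2.11, limma adjusted p = 0.0545), where more features enter the adjustment. By the exact permutation test no member passed, since p = 0.1 is the smallest it can give: Msr1 (-5.83), Cd68 (-3.82), Cd36 (-3.33), Stab1 (-2.11), Scarb1 (-1.93) and Cd163 (-1.05) all had that value.

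No list's count called lower moved by more than 1.5 times in any fit. Within that limit counts ranged from 10 to 14 (transcription factors), 4 to 8 (clathrin and endosome genes) and 6 to 9 (other scavenger receptors). Counts called higher were small and moved more. Among ligands 2 were higher with the block or array weights, and 1 with 75th percentile centring, quantile normalization again or the trended robust variance. Of heme genes 1 was higher with the block or array weights, and of lipoprotein genes 1 with the block. Other scavenger receptors numbered 2 higher with array weights. Transcription factors numbered 2 higher with array weights, and 0 with all probe sets or quantile normalization again. Cd36 partners numbered 1 with all probe sets. With arrays left out, counts higher ranged from 0 to 2 (ligands), 0 to 1 (lipoprotein genes), 0 to 1 (other scavenger receptors), 0 to 2 (transcription factors) and 1 to 3 (Cd36 partners). The cause of these moves was not tested. Signal over background limits Marco and Cd163 on all arrays, Colec12 on all but macrophage replicate 1, and the dendritic side of Msr1 and Stab1, whose values there lie under the array medians.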

Other observations

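Some genes of lipid and heme handling had their highest macrophage value on macrophage replicate 1, as Stab1 did. These included Apoe (12.45, against 9.31 and 10.05), haptoglobin (Hp, 10.52 against 8.12 and 8.47), Hmox1 (11.17 against 9.89 and 10.38) and the lipid droplet protein Plin2 (10.27 against 8.93 and 9.15), all picked after their values were seen. Over the whole lists this array was the highest of the macrophage arrays for 11 of 17 lipoprotein genes and 7 of 11 heme genes. It was the lowest for 4 in each list. Of 18 Cd36 partners it was the highest for 13 and the lowest for 3, and of 24 other scavenger receptors the highest for 6 and the lowest for 15. The share over all genes was not counted. Over all genes this array deviated most from the macrophage means (root mean square 0.225, against 0.148 and 0.176). On the dendritic arrays Plin2 and the cholesterol exporter Abca1 were highest on replicate 1 as well (8.29 against 6.78 and 6.98, and 6.89 against 5.61 and 4.58). Apoe was lowest there (6.37 against 6.55 and 6.78). Over the whole lists dendritic replicate 1 was the highest dendritic array for 10 of 17 lipoprotein genes and the lowest for 3. Of 11 heme genes it was the highest for 3 and the lowest for 6. Neutrophil granule genes moved with Plin2 and Abca1. Replicate 1 was the highest for 10 of 10 of them on the macrophage and 7 of 10 on the dendritic arrays, as for Camp (8.27 against 6.79 and 6.33, and 8.45 against 7.19 and 6.67). Their part in the spread was not tested.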
